A study of Mus musculus with 12 samples.

Results

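The insulin-like growth factor (IGF) axis was described through 10 genes in the proximal jejunum of mice: the ligands Igf1 and Igf2, the receptor gene Igf1r, and the binding protein genes Igfbp1 to Igfbp7. The members were the probe sets annotated to exactly 1 of these symbols. All 10 genes were found, each with 1 probe set, among 18820 genes read by the arrays. Their signals were measured in 4 groups of 3 mice, with 1 Affymetrix array per mouse. Methotrexate (MTX), an antifolate that blocks DNA synthesis and injures the gut lining, was given intraperitoneally at 40 mg per kg of body weight per day for 4 days to TLR2 knockout (KO) mice and to wild-type (WT) mice. Their jejunum was taken on day 7, while the untreated KO and untreated WT mice are labelled as having had no treatment. The KO strain is B6.129-Tlr2tm1Kir/J, which lacks the bacterial lipoprotein receptor TLR2 in all tissues, and the WT strain is given as C57BL6/J. No injection and no day of sampling are recorded for the untreated mice, so effects of MTX, of injection and of the day cannot be told apart. KO and WT mice come from separate lines, so the allele and the rest of the strain background cannot be told apart either.

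IGF-I and IGF-II are small secreted peptides that signal through the tyrosine kinase IGF-I receptor and promote cell growth and survival. In the intestine they are made largely by mesenchymal cells, while circulating IGF-I comes mainly from the liver, and IGF-I is known to enlarge crypts and to favour repair of the mucosa. The binding proteins hold the ligands outside cells and can block or prolong their action, and secreted proteases release the ligand by cutting them. Igfbp7 encodes a more distant relative that binds IGFs weakly.

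Signals are log2 values made by the authors with RMA, so a difference of 1 is a doubling. They can be compared between arrays for 1 gene but not between genes. A gene is said to have risen or fallen where limma's adjusted p, over all 18820 genes, was under 0.05. Values after ± are the SD for group means (n = 3 mice) and limma's standard error for log2 changes. Array medians lay between 4.37 and 4.56. Tlr2 itself read 5.28 to 6.18 in treated KO, 4.36 to 5.02 in untreated KO, 4.49 to 4.65 in treated WT and 4.37 to 4.65 in untreated WT arrays. It was thus not lower in arrays labelled KO. Where its probes lie with respect to the allele is unknown here, and the genotype labels could therefore not be checked. Enterocyte markers (Lct, Sis, Fabp2, Apoa1, Alpi and Anpep) averaged 6.07 to 8.74 in treated KO arrays and 11.62 to 12.04 in the arrays of the other groups. Arrays also differed in pancreatic RNA. Averaged over 10 acinar genes, the signal reached 12.13 to 12.64 in 7 of them, against 3.80 to 5.64 in the other 5, and each group held arrays of both kinds.

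After MTX, 7 of the 10 members rose in KO mice and none fell. Over all genes 34.8% were called in that comparison, 18.8% as higher. The 7 were Igf1, Igf1r, Igfbp2, Igfbp3, Igfbp4, Igfbp5 and Igfbp7, and their changes ran from 0.59 for Igfbp2 to 4.80 for Igfbp5. All arrays of treated KO mice lay above those of untreated KO mice for the same 7 genes, where 23% of all genes did so. The median change of the 10 members was 1.40, against -0.02 over all genes. In WT mice 0 of 10 members passed limma's test after MTX, where 0.0744% of all genes did. An unadjusted p under 0.05 was found for 3 members, and for 2198 of 18820 genes. The median change in WT was -0.16. Array weights gave 2 calls in WT, which were lower Igfbp3 and Igfbp6. With these weights 1819 of 18820 genes were called there, against 14 without them.

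**Figure D1:**
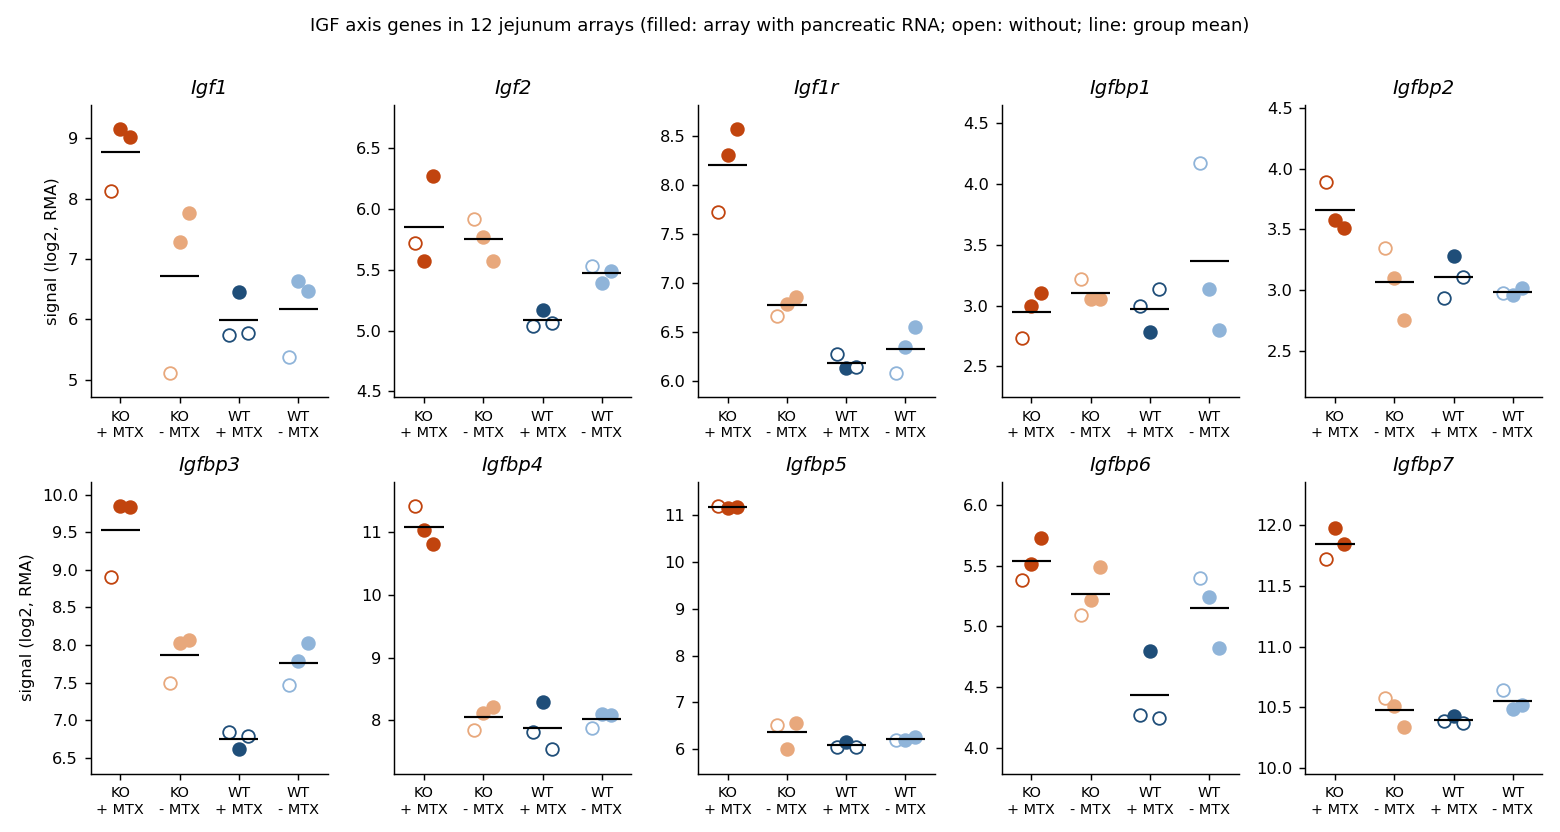
Log2 signal of the 10 IGF axis genes in each of the 12 arrays, by group, with filled points for arrays holding pancreatic RNA, open points for those without and a line at the group mean. Igfbp5 lies at 11.15 to 11.19 in treated KO arrays and between 6.00 and 6.57 in all others, while Igfbp1 shows overlapping groups.

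Igf1, which encodes the main trophic ligand, read 8.13, 9.15 and 9.01 in treated KO mice, against 5.12, 7.28 and 7.76 in untreated KO mice. All treated KO arrays lay above all untreated ones, but the untreated arrays were spread widely. Igf1 rose by 2.04 ± 0.60 (adjusted p = 0.0199), about 4.11-fold. In WT mice Igf1 read 5.74, 6.45 and 5.78 after MTX, against 5.38, 6.64 and 6.47 untreated, and these groups overlapped (change -0.17 ± 0.60). Between the treated genotypes Igf1 was higher in KO by 2.77 ± 0.60 (adjusted p = 0.00308). The difference between the MTX effects in KO and in WT was 2.21 ± 0.84 and did not pass (adjusted p = 0.0843).

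The spread of Igf1 within groups went with pancreatic RNA. In each of the 4 groups every array with pancreatic RNA read higher for Igf1 than every array without it. With group held constant, arrays with pancreatic RNA were higher by 1.30 ± 0.22 (limma, adjusted p = 0.0110), a comparison in which 2.65% of all genes were called. Igf1 was the only member to pass there; Igfbp3 was higher by 0.43 ± 0.14 (adjusted p = 0.167) and Igf1r by 0.29 ± 0.12 (adjusted p = 0.275). Both KO groups hold 2 arrays with and 1 without pancreatic RNA, so pancreatic RNA as a block could not move the change of Igf1 in KO mice. The rise with that block was 2.04 (adjusted p = 0.00022), as in the main fit. It was 1.56 (adjusted p = 0.000152) within the arrays with pancreatic RNA, where each KO group has 2 arrays and the treated WT has 1, assumed to vary like the others. Without pancreatic RNA the change was 3.01 between 1 treated and 1 untreated KO array, a difference between single arrays that has no replicate check. The difference between the MTX effects of KO and WT passed with that block (1.78, adjusted p = 0.00908). It was 1.66 within the arrays with pancreatic RNA and 2.63 within those without, values that rest on single arrays in 1 or more groups and are given with no test. It also passed with the replicate number as a block (adjusted p = 0.0112). Each group holds every replicate number, so that block could not move the difference from 2.21. That block is not independent of pancreatic RNA, which replicate 1 lacked and replicate 2 held in every group. Fitting only both KO groups, the call of the rise in KO mice was lost (adjusted p = 0.0697). It was also lost without replicate 2 or without replicate 3 of the treated KO (adjusted p = 0.0693 and 0.0570), and without replicate 1 of the untreated KO the change was 1.24 (adjusted p = 0.0401).

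**Figure D2:**
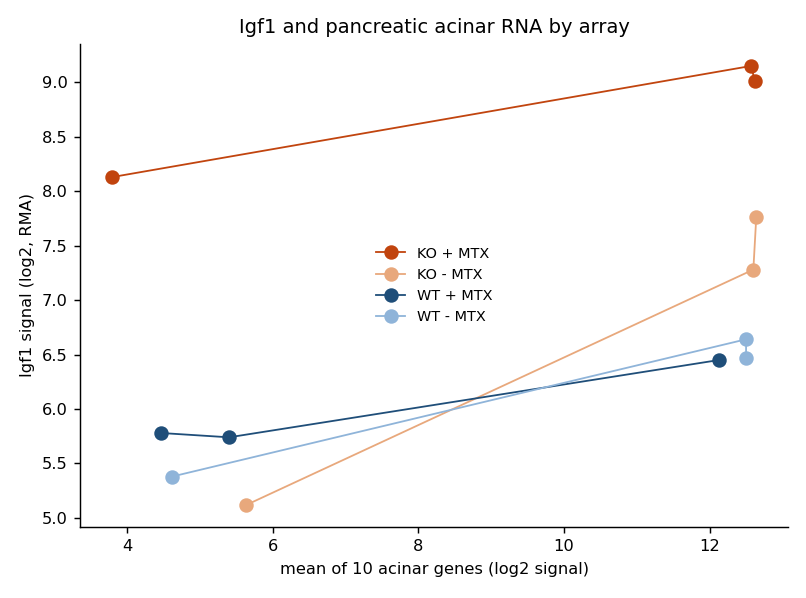
Igf1 signal (log2) against the mean log2 signal of 10 pancreatic acinar genes in the 12 arrays, with lines joining arrays of 1 group. In each group the arrays with an acinar mean of 12.13 or more read higher for Igf1 than those at 5.64 or less.

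Igf2, the ligand best known for fetal growth and for being imprinted, did not pass after MTX in either genotype. It read 5.72, 5.57 and 6.27 in treated KO mice, against 5.92, 5.77 and 5.57 in untreated KO mice, and the groups overlapped (0.10 ± 0.16, adjusted p = 0.692). In WT mice it read 5.04, 5.17 and 5.06 after MTX, against 5.53, 5.39 and 5.49 untreated. All treated WT arrays were lower, by -0.38 ± 0.16, which did not pass (adjusted p = 0.405). Treated KO mice were higher than treated WT mice by 0.77 ± 0.16 (adjusted p = 0.00293). Within the arrays with pancreatic RNA the difference was 0.75, which rests on 1 treated WT array and is given with no test. Group means of Igf2 were 5.85 ± 0.37 in treated KO, 5.75 ± 0.18 in untreated KO, 5.09 ± 0.07 in treated WT and 5.47 ± 0.07 in untreated WT. All 6 KO arrays (5.57 to 6.27) lay above all 6 WT arrays (5.04 to 5.53), by a narrow margin. This holds for 1.15% of all genes, and among the members only for Igf2 and Igf1r.

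Igf1r, the signalling receptor for both ligands, read 7.73, 8.31 and 8.57 in treated KO mice, against 6.67, 6.79 and 6.86 in untreated KO mice. The groups did not overlap, and Igf1r rose by 1.43 ± 0.19 (adjusted p = 0.000118). In WT mice it read 6.28, 6.14 and 6.15 after MTX, against 6.09, 6.35 and 6.55 untreated, with no call (-0.14 ± 0.19). Treated KO exceeded treated WT by 2.01 ± 0.19 (adjusted p = 6.93e-06), and the MTX effect was larger in KO than in WT by 1.57 ± 0.27 (adjusted p = 0.00122). Untreated KO arrays already lay above the untreated WT arrays, by 0.44 ± 0.19, which did not pass (adjusted p = 0.786).

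Among the binding proteins the change was very uneven. Igfbp5, a matrix-binding member made mainly by mesenchymal cells, read 11.19, 11.15 and 11.16 in treated KO mice, against 6.52, 6.00 and 6.57 in untreated KO mice. It read 6.06, 6.15 and 6.05 in treated WT mice, against 6.21, 6.19 and 6.26 in untreated WT mice. The treated KO arrays thus stood far above all others and close to each other. Igfbp5 rose by 4.80 ± 0.13 in KO mice (adjusted p = 3.68e-09), about 27.9-fold, and changed by -0.13 ± 0.13 in WT mice (adjusted p = 0.698). Treated KO exceeded treated WT by 5.08 ± 0.13, and the MTX effects differed by 4.93 ± 0.19 (adjusted p = 1.52e-07).

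Igfbp4, which generally restrains IGF action until it is cut by a protease, read 11.41, 11.02 and 10.80 in treated KO mice, against 7.85, 8.12 and 8.21 in untreated KO mice. In WT mice it read 7.82, 8.29 and 7.54 after MTX, against 7.88, 8.11 and 8.09 untreated. Only treated KO arrays were above 8.29. Igfbp4 rose by 3.02 ± 0.20 in KO mice (adjusted p = 6.80e-07), about 8.10-fold, and changed by -0.14 ± 0.20 in WT mice. The MTX effects differed by 3.16 ± 0.29 (adjusted p = 1.63e-05).

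Igfbp7, abundant in vessel walls, read 11.72, 11.97 and 11.84 in treated KO mice, against 10.58, 10.51 and 10.34 in untreated KO mice. It read 10.39, 10.43 and 10.37 in treated WT mice, against 10.64, 10.49 and 10.52 in untreated WT mice. Here all treated WT arrays were slightly lower than the untreated ones, without passing (-0.16 ± 0.10), whereas KO mice showed a rise of 1.37 ± 0.10 (adjusted p = 1.38e-06). The MTX effects differed by 1.52 ± 0.14 (adjusted p = 2.08e-05).

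Igfbp3, the main carrier of IGFs in blood, read 8.90, 9.85 and 9.83 in treated KO mice, against 7.49, 8.03 and 8.07 in untreated KO mice. It read 6.84, 6.61 and 6.79 in treated WT mice, against 7.47, 7.78 and 8.02 in untreated WT mice. The groups separated in opposite directions in KO and WT mice. Igfbp3 rose by 1.67 ± 0.25 in KO mice (adjusted p = 0.00033). Its change of -1.01 ± 0.25 in WT mice did not pass over all genes (adjusted p = 0.181). The change passed with array weights (adjusted p = 0.00287), where 1819 of 18820 genes did. It also passed without replicate 1 of the treated KO (adjusted p = 0.0421), where 97 of 18820 genes did, against 14 in the main fit. That array is not part of the WT comparison, so the change itself stayed at -1.01. Within the arrays with pancreatic RNA it was -1.29, a value that rests on 1 treated WT array and is given with no test. The MTX effects differed by 2.68 ± 0.36 (adjusted p = 0.000234), and treated KO exceeded treated WT by 2.79 ± 0.25.

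Igfbp6, which prefers IGF-II, read 5.38, 5.51 and 5.73 in treated KO mice, against 5.09, 5.22 and 5.49 in untreated KO mice, with overlap and no call (0.27 ± 0.19). In WT mice it read 4.27, 4.80 and 4.25 after MTX, against 5.40, 5.24 and 4.82 untreated. The treated WT arrays were lower, by -0.71 ± 0.19, which did not pass (adjusted p = 0.204). Treated KO exceeded treated WT by 1.10 ± 0.19 (adjusted p = 0.000702), and the MTX effects differed by 0.99 ± 0.27 (adjusted p = 0.0193). That last call was lost without replicate 1 of the treated WT (adjusted p = 0.0511) and without replicate 3 of the treated WT (adjusted p = 0.0533). Within the arrays with pancreatic RNA, where the treated WT has 1 array, the difference was smaller, at 0.50.

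Igfbp2 and Igfbp1 were the dimmest members, and both fell below the 25th percentile of mean signal over all genes, while the other 8 members passed that filter. Igfbp2 read 3.89, 3.58 and 3.51 in treated KO mice, against 3.35, 3.10 and 2.76 in untreated KO mice, a rise of 0.59 ± 0.16 (adjusted p = 0.0121). In WT mice Igfbp2 read 2.94, 3.28 and 3.11 after MTX, against 2.98, 2.96 and 3.02 untreated. The rise in KO mice was not called when only both KO groups were fitted (adjusted p = 0.0563). Treated KO exceeded treated WT by 0.55 ± 0.16 (adjusted p = 0.0167). That call was lost without replicate 1 of the treated KO (adjusted p = 0.0581) and without replicate 1 of the treated WT (adjusted p = 0.0708). Within the arrays with pancreatic RNA, where the treated WT has 1 array, the difference was smaller, at 0.26. The MTX effects differed by 0.46 ± 0.22, which passed only with array weights (adjusted p = 0.174, and 0.0456 with weights). With weights 7474 of 18820 genes were called for that difference, against 4479 without.

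Igfbp1, a liver-derived binding protein induced by fasting, read 2.73, 3.00 and 3.10 in treated KO mice, against 3.22, 3.05 and 3.05 in untreated KO mice. It read 3.00, 2.78 and 3.14 in treated WT mice, against 4.17, 3.14 and 2.80 in untreated WT mice. It was the only member called in no comparison, and its change in KO mice was -0.17 with a 95% confidence interval of -0.77 to 0.44. The highest value came from replicate 1 of the untreated WT, the array whose mean over 6 adipocyte markers was also highest (7.38, against 4.56 to 5.52 in the others).

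**Figure D3:**
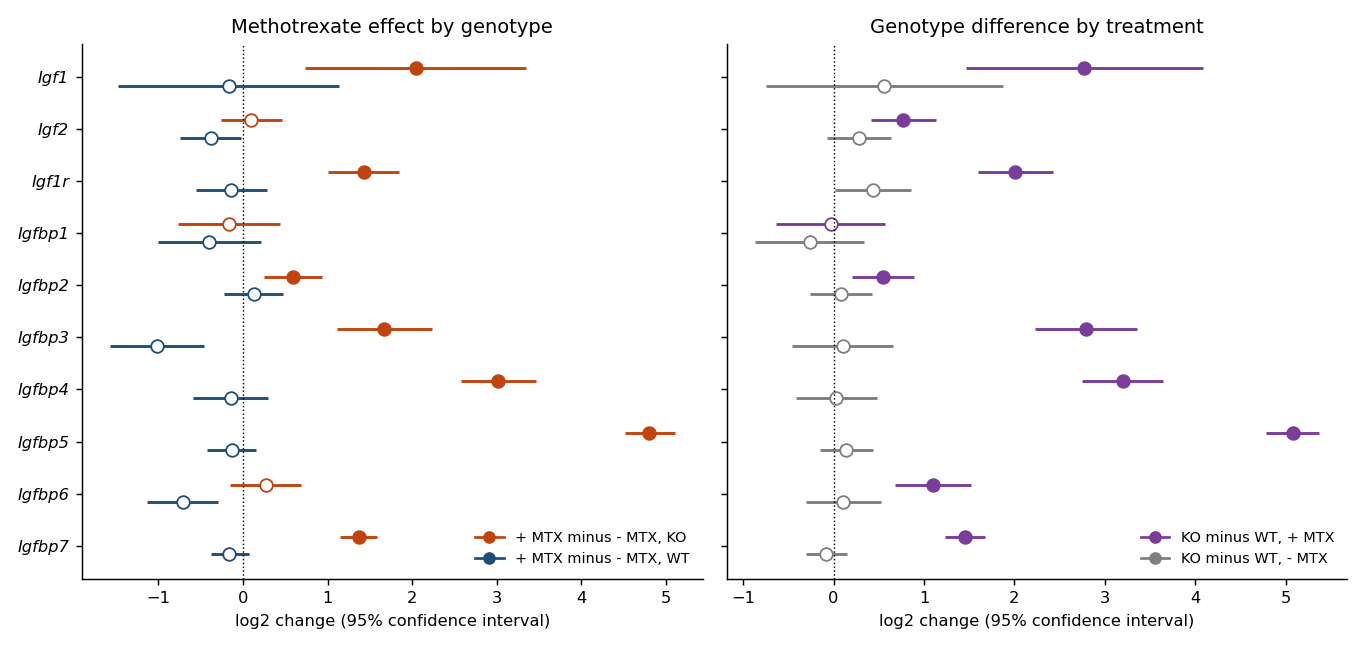
Log2 change of each member after MTX in KO and WT mice (left) and between genotypes with and without MTX (right), with 95% confidence intervals and filled points where limma's adjusted p is under 0.05. The changes in KO mice reach 4.80 for Igfbp5, and no point is filled for MTX in WT mice or for the untreated genotypes.

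Neighbouring members changed by different amounts. Igfbp2 and Igfbp5 share chromosome 1 with 0 protein-coding genes between them in the RefSeq gene table of GRCm38.p6, and so do Igfbp1 and Igfbp3 on chromosome 11. In KO mice the 95% confidence interval of the change was 4.51 to 5.10 for Igfbp5 and 0.25 to 0.94 for Igfbp2. It was 1.11 to 2.23 for Igfbp3 and -0.77 to 0.44 for Igfbp1.

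The promoters of Igfbp5, Igfbp4 and Igfbp7 are shown because these were the binding proteins whose signals followed each other most closely over the 12 arrays (Pearson r of 0.97 to 0.99, a description of arrays that fall into separate groups). They come from RefSeq on GRCm38.p6, at chr1:72874816-72875115 on the minus strand, chr11:99040994-99041293 on the plus strand and chr5:77407996-77408295 on the minus strand. Each runs 5′ to 3′ from 250 bases before the annotated start to 50 bases after it. Capitals mark matches, on either strand, to the letters TATAAA of the classical core promoter box, to its looser relative TATTTAA, to GGGCGG, known as the GC box, or to TGACTCA, known as the AP-1 motif. No matches overlapped.
Igfbp5: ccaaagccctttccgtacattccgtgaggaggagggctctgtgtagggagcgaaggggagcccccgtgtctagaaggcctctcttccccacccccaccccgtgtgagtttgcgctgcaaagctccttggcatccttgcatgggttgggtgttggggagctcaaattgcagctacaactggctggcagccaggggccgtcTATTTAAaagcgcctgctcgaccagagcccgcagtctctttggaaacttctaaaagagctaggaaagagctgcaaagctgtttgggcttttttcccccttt
Igfbp4: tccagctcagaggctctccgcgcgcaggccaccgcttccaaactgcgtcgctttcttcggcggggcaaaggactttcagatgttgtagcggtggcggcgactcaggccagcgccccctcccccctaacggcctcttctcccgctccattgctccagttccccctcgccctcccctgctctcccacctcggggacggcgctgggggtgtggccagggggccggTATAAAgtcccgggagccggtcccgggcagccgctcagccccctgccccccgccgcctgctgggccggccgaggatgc
Igfbp7: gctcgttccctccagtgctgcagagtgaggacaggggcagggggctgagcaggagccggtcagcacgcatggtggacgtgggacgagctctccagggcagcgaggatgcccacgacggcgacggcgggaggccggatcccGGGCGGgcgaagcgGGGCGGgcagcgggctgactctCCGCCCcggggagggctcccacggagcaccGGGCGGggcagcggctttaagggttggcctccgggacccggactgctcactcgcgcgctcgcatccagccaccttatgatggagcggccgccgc
The Igfbp5 window held 1 TATTTAA, whose first base was at -51 from the start, a motif found in 4.51% of the 32851 RefSeq promoter windows and chosen after the sequence was seen. The Igfbp4 window held 1 TATAAA at -28, found in 13.6% of windows. The Igfbp7 window held neither and had 4 GC boxes, which occur in 35.7% of windows. TGACTCA (5.20% of windows) was in none of these 3 windows and in 1 of the 14 windows of the members, the second one of Igfbp2. The proportion of G and C was 56.3% for Igfbp5, 71.3% for Igfbp4 and 73.3% for Igfbp7. The 3 windows had no motif of this search in common. A match describes the letters only, and a motif not found says only that these letters are not in the window.

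Between treated genotypes 9 of 10 members were higher in KO than in WT, Igfbp1 being the exception at -0.03 ± 0.28, and 36.9% of all genes were called, 20.2% as higher. This comparison shares its treated KO arrays with that of treated and untreated KO mice. All arrays of treated KO mice lay above those of treated WT mice for the same 9 members, where 24.2% of all genes did so. Igf2 and Igfbp6 were among the 9, although neither was called after MTX in KO mice. In treated WT mice the arrays of 5 members (Igf2, Igfbp3, Igfbp5, Igfbp6 and Igfbp7) all lay below those of untreated WT mice, where 9.18% of genes did so. Between untreated genotypes 0 of 10 members passed limma's test, with 0.0106% of all genes called. There 1 member, Igf1r, had an unadjusted p under 0.05, as did 1165 of 18820 genes. Untreated KO arrays lay above untreated WT arrays for Igf2 and Igf1r, as they did for 7.47% of all genes. With array weights Igf1r was called there (adjusted p = 0.0467), as were 558 of 18820 genes, against 2 without weights. The difference between the MTX effects in KO and in WT was called for 6 of 10 members, all more positive in KO, and for 23.8% of all genes, 11.8% as more positive in KO.

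The other genes of the pathway were taken from 6 lists holding 41 genes, of which 38 were measured. In KO mice 12 rose and 3 fell after MTX, where 34.8% of all genes were called and 18.8% were called higher, and their median change was 0.16. In WT mice 0 passed limma's test and 6 had an unadjusted p under 0.05, as did 2198 of 18820 genes. Between treated genotypes 15 were higher and 2 lower in KO, where 36.9% of all genes were called and 20.2% were called higher. Between untreated genotypes 0 passed, with 4 at an unadjusted p under 0.05, as were 1165 of 18820 genes. The difference of MTX effects was called for 11, of which 8 were positive, where 23.8% of all genes were called and 11.8% were positive.

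The proteases that cut binding proteins and the inhibitors of these proteases stood out by size. Of these 5 genes 4 rose in KO mice, where 18.8% of all genes did, and their median change was 2.99. Pappa, whose product cleaves IGFBP-4 and so frees its ligand, read 9.32, 9.63 and 9.51 in treated KO mice, against 4.96, 5.36 and 5.06 in untreated KO mice. The groups lay far apart, and Pappa rose by 4.36 ± 0.26 (adjusted p = 2.98e-07). In WT mice Pappa read 5.33, 5.63 and 4.84 after MTX, against 4.26, 4.77 and 5.35 untreated, with overlap.

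Pappa2, which cleaves IGFBP-3 and IGFBP-5, read 7.20, 6.73 and 6.44 in treated KO mice, against 3.29, 3.64 and 3.65 in untreated KO mice, a rise of 3.26 ± 0.22. Stc1, which encodes a stanniocalcin that inhibits PAPP-A, read 7.79, 7.44 and 7.78 in treated KO mice, against 4.75, 4.26 and 5.02 in untreated KO mice, a rise of 2.99. A protease and its inhibitor therefore moved the same way. Htra1, a serine protease that also cuts binding proteins, rose by 1.28 ± 0.10 in KO mice. Stc2, the other stanniocalcin gene, changed by 0.98 ± 0.38 and did not pass (adjusted p = 0.0647). The MTX effect was larger in KO than in WT for Pappa by 3.89 ± 0.37 (adjusted p = 2.28e-05), for Stc1 by 3.31 ± 0.35 and for Htra1 by 1.36 ± 0.14. Treated KO mice exceeded treated WT mice by 4.22 ± 0.26 for Pappa, 3.77 ± 0.25 for Stc1, and were 2.82-fold higher for Htra1 (adjusted p = 6.44e-07).

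Of 14 measured genes of receptor-proximal signalling 6 rose and 1 fell in KO mice, with changes of up to 1.75. Over all genes 34.8% were called there, 18.8% as higher. Grb10, an adaptor that restrains insulin and IGF-I receptors, read 7.46, 7.61 and 7.89 in treated KO mice, against 4.99, 6.21 and 6.50 in untreated KO mice, a rise of 1.75 ± 0.32 (adjusted p = 0.00107). The kinase genes Akt1 and Akt2 rose by 0.81 ± 0.18 and 0.61 ± 0.10. The other rises were those of the docking protein genes Irs1, Irs2 and Shc1, by 0.60 to 0.65, and Pdpk1, which encodes a kinase acting on AKT, fell by 0.30.

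Of 6 genes of growth hormone input only the kinase gene Jak2 was called in KO mice, where it fell by 0.98 ± 0.14 (adjusted p = 0.000176), while Ghr, the growth hormone receptor, changed by 0.11 ± 0.18 (adjusted p = 0.694). Of 4 related receptors and ternary complex genes only Insrr, the insulin receptor-related receptor, was called, and it fell by 1.22 ± 0.21. Igf2r, which clears IGF-II, changed by -0.16 ± 0.09 (adjusted p = 0.208), and Igfals, which encodes the third subunit of the circulating complex, by -0.77 ± 0.28 (adjusted p = 0.0556). Of 7 secreted relatives of the binding proteins Ccn2 and Ccn1, matricellular proteins, rose by 2.78 ± 0.34 and 1.69 ± 0.43. Neither of 2 measured genes of IGF2 mRNA-binding proteins was called in KO mice. The counts of these lists stand beside 34.8% of all genes called in KO mice, 18.8% as higher.

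**Figure D4:**
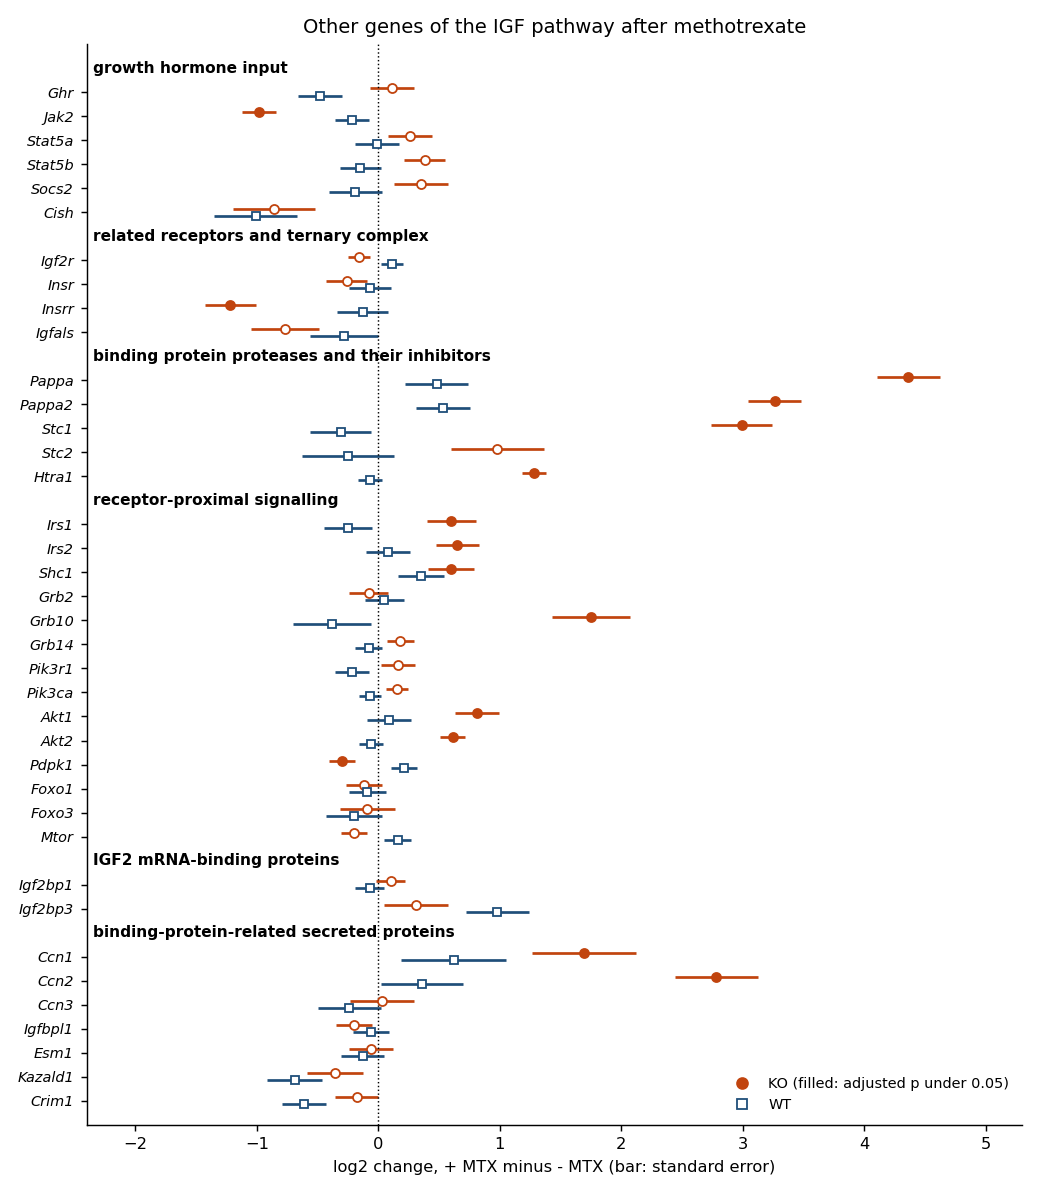
Log2 change after MTX of 38 further genes of the IGF pathway in KO mice (circles, filled where adjusted p is under 0.05) and WT mice (squares), with standard errors, grouped by role. Pappa (4.36), Pappa2 (3.26) and Stc1 (2.99) lie farthest to the right in KO mice, and no gene passed the test in WT mice.

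Fibroblast, endothelial and macrophage markers mostly rose in treated KO mice, while smooth muscle and mesothelial markers did so only in part. Over all genes 34.8% were called in this comparison, 18.8% as higher. Of 7 fibroblast markers 7 rose in treated KO mice, and their mean level was 9.04 to 9.14 in treated KO, 7.19 to 7.58 in untreated KO, 7.36 to 7.45 in treated WT and 7.20 to 7.32 in untreated WT arrays. Their changes in KO mice ran from 1.11 for Thy1 to 2.28 for Col1a1, below those of Igfbp4 and Igfbp5 and in the range of Igf1, Igf1r, Igfbp3 and Igfbp7. Of 7 endothelial markers 6 rose (mean level 7.06 to 7.22 in treated KO and 5.92 to 6.13 in untreated KO arrays), as did 5 of 5 macrophage markers (7.86 to 8.32 in treated KO and 5.69 to 5.92 in untreated KO arrays). Of 6 smooth muscle markers 2 rose (10.04 to 10.14 in treated KO and 9.17 to 10.19 in untreated KO arrays). Of 4 mesothelial markers Msln and Wt1 rose, by 4.84 and 0.71 (mean level of the list 5.65 to 5.94 in treated KO, against 4.17 to 4.50 in untreated KO arrays). The change of Msln compares with 4.80 for Igfbp5, while Upk3b and Lrrn4 changed by -0.04 and 0.33 without passing. All 6 enterocyte markers fell, and so did 4 of 5 general epithelial markers (10.05 to 10.11 in treated KO and 11.07 to 11.51 in untreated KO arrays). The part of these cell types in the changes of the IGF axis was not tested, and in whole tissue fewer cells of a type and less RNA per cell cannot be told apart. Of the 5 genes listed as hepatocyte markers 1 was higher (Tat) and 1 lower (Cps1, at 6.41 in treated and 10.98 in untreated KO mice). Alb read lower in treated KO mice, at 3.57, than in untreated KO mice, at 4.89, without passing. Whether the genes of this list reflect liver cells in the jejunum was not tested.

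The genes with the most similar profile over the 12 arrays mostly differed between members. For Igfbp5 they were Chl1, Fcgr2b and Il1rn (each r = 0.996), which rose by 3.54, 3.00 and 3.40 in KO mice. For Igfbp4 they were Lilrb4a, Tnfrsf22 and Mmp3 (r = 0.993 to 0.994), and for Igfbp7 Rhoj, Mmp2 and Tspan9 (r = 0.993 to 0.996). Those of Igf1r were Ccdc9b, Mdfic and Spaca6 (r = 0.989 to 0.992), and those of Igfbp3 were Pde8a, Ripor1 and Ptprb (r = 0.983 to 0.991). Igf1 had Sfxn5, Gria3 and Atxn10 as its nearest profiles (r = 0.975 to 0.988). For Igfbp2, Igfbp6 and Igf2 the leading genes were Prep (0.968), Gpm6a (0.941) and Rims1 (0.891). Rims1 also stood at rank 2 for Igfbp6 (r = 0.93). These correlations rest on arrays that fall into groups and partly share pancreatic RNA, so they describe profiles only.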

How the data were processed

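RNA of the proximal jejunum of 12 mice was hybridised to 1 array each. The authors deposited log2 signal values made with RMA, per the submitters' processing notes, with no version stated. Which genome build was used is not given in the sources used here. No further scaling was applied. Of 35556 probe sets, 21218 had 1 gene symbol in the platform annotation, 1881 several and 12457 none. This gave 18820 genes, each read by its brightest probe set. Precision is limited by the number of arrays.

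Limma 3.58.1 in R 4.3.3 was fitted to all 12 arrays with a mean per group (8 residual degrees of freedom), and p-values were adjusted by the Benjamini-Hochberg method. The fit was tested on simulated data. The members, lists and tests were chosen with earlier results of these data known. All members are named. Of each pathway list up to 3 called genes with the smallest p are named, and in other comparisons up to 3 over all lists. Stc2, Irs1, Irs2, Shc1, Pdpk1, Ghr, Igf2r, Igfals and Alb were added after their values were seen. The pathway genes that were not measured are not reported here. Arrays with an acinar mean above 8 were taken to hold pancreatic RNA.

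Deviations from group means of same-numbered mice correlated at 0.29 to 0.50 between both KO groups and at 0.50 to 0.67 between the untreated groups, but at -0.49 for replicate 3 of both WT groups and at -0.15 for replicate 3 of the treated groups. Replicate 1 held no pancreatic RNA in any group and replicate 2 held it in every group. Alternatives covered filters, probe set choice, scaling, blocks, variance models, array weights and arrays left out.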

Additional observations from a re-analysis of the deposited data

Results flagged for a closer look

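For 6 members the effect of MTX in KO mice differed from that in WT mice by limma's test of the difference, which is why they are listed here. The difference, on the log2 scale and more positive in KO in each case, was 4.93 for Igfbp5, 3.16 for Igfbp4, 2.68 for Igfbp3, 1.57 for Igf1r, 1.52 for Igfbp7 and 0.99 for Igfbp6. The changes behind them, after MTX in KO and then in WT mice, were 4.80 and -0.13 for Igfbp5, 3.02 and -0.14 for Igfbp4, 1.67 and -1.01 for Igfbp3, 1.43 and -0.14 for Igf1r, 1.37 and -0.16 for Igfbp7, and 0.27 and -0.71 for Igfbp6. Of these, the difference of Igfbp6 was not called without replicate 1 or replicate 3 of the treated WT. Within the arrays with pancreatic RNA, where the treated WT has 1 array, it was 0.50. Groups of 3 are too small for a check for outlying arrays.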

How the results depend on the processing

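Over 1180 values of single members under the alternatives, 1126 kept their direction and side of the threshold, 12 lost a call, 12 gained one and 30 changed sign. None of the 30 was called. Many of the 1180 values could not move in size. Each member had 1 probe set, and leaving out an array of a group not compared cannot alter a change. Fits that rest on single arrays are also among them. The tally is therefore no measure of stability. Igf1r, Igfbp3, Igfbp4, Igfbp5 and Igfbp7 kept their calls in KO mice, between treated genotypes and for the difference of MTX effects in every alternative run. Within the arrays without pancreatic RNA this rests on single arrays in every group but the treated WT, so it says nothing about stability. Igfbp1 and Igfbp2 could not be tested with dim genes left out, and the interaction names all groups, so a fit of only the groups compared does not apply to it. The largest shift of an array by centring or quantile normalisation was 0.13. With the replicate number as a block (replicate block) 7 members were called in KO mice and 0 in WT mice. It gave 9 between treated and 0 between untreated genotypes, and 7 for the difference of MTX effects. Over all 18820 genes 6455, 0, 6977, 2 and 4486 were called with that block, in the same order. The block changed no other call of a member than that of Igf1 given above.

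Counts of calls that moved were as follows. In WT mice 2 members and 6 pathway genes were called with array weights. Over all genes the weights gave 1819 calls of 18820 in WT mice, against 14 in the main fit. Within the arrays with pancreatic RNA 1 member and 4 pathway genes were called in WT mice. These calls rest on 1 treated WT array, so they say nothing about stability. Leaving out 1 array gave 0 to 1 members, 1 without replicate 1 of the treated KO. Array weights gave 1 member and 3 pathway genes between untreated genotypes, and 21 pathway genes for the difference of MTX effects. Over all 18820 genes the weights gave 558 and 7474 calls there, against 2 and 4479 in the main fit. With a log2 change of at least 1 required, 8 of 38 pathway genes remained called in KO mice, 9 between treated genotypes and 7 for the difference. Over all 18820 genes 2792, 3284 and 2845 remained called, in the same order. The cause was not tested, other than that a fold minimum can only lower a count.

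The values that changed sign were as follows, and the cause was not tested. Within the arrays without pancreatic RNA they were 0.38 for Igf1 and 0.13 for Igf1r after MTX in WT, -0.20 for Igf2 after MTX in KO, and -0.25, -0.03 and -0.31 for Igf1, Igfbp4 and Igfbp6 between untreated genotypes. Within the arrays with pancreatic RNA they were 0.19 for Igfbp4 after MTX in WT, 0.27 for Igfbp1 between treated genotypes, and 0.08 and -0.06 for Igfbp1 and Igfbp2 between untreated genotypes. With pancreatic RNA as a block Igf1 after MTX in WT was 0.26 and Igfbp1 between treated genotypes 0.08. Quantile normalisation gave 0.01 for Igfbp1 between treated and -0.01 for Igfbp4 between untreated genotypes, centring gave 0.00 for the last, and array weights gave -0.03 for Igf2 after MTX in KO. Leaving out 1 array gave ranges of -0.56 to 0.07 for Igf1, -0.68 to 0.00 for Igfbp1 and -0.35 to 0.03 for Igfbp4 after MTX in WT, and for Igf2 of -0.11 to 0.24 after MTX in KO. Those of Igfbp1 were -0.13 to 0.08 between treated genotypes and -0.17 to 0.51 for the difference of MTX effects. Between untreated genotypes the ranges were -0.55 to 0.14 for Igfbp1, -0.06 to 0.24 for Igfbp2, -0.04 to 0.29 for Igfbp3, -0.04 to 0.14 for Igfbp4 and -0.05 to 0.24 for Igfbp6.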
